A study of Homo sapiens with 18 samples.

Results

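Bulk RNA-Seq counts of 10 genes that drive or mark the epithelial to mesenchymal transition (EMT) were examined in 2 non-small cell lung cancer (NSCLC) lines with and without PPP2R2A KD. The genes were CDH1, ESRP1, CDH2, VIM, FN1, SNAI1, SNAI2, ZEB1, ZEB2 and TWIST1. They were taken by symbol from a table of 57773 genes, and all 10 were in it. Each of 6 groups had 3 libraries. A549, a lung adenocarcinoma line, and H1299, a line from a lymph node metastasis of a lung cancer, each carried shPPP2R2A-1, shPPP2R2A-2 or the scrambled control hairpin shcon. PPP2R2A encodes a B55 regulatory subunit of the phosphatase PP2A, and the experiment was a broad survey of the transcription that this subunit influences. The hairpins target different regions of the PPP2R2A mRNA. All libraries carried a hairpin, so cells without one were not analysed here. Both lines are established cell lines grown on their own, with no stroma or immune cells. The labels do not give the time after hairpin delivery or say whether the 3 libraries of a group came from separate cultures, so every p-value measures only how far these libraries spread, and that spread may be technical.

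In EMT, epithelial cells give up the junctions that hold them in a sheet and take on a motile, mesenchymal form. The change is driven by a small set of transcription factors: the zinc finger proteins SNAI1 (Snail) and SNAI2 (Slug), the zinc finger and homeodomain proteins ZEB1 and ZEB2, and the basic helix-loop-helix protein TWIST1. The SNAI and ZEB proteins bind short DNA elements called E-boxes and repress epithelial genes, of which CDH1, the gene of the adhesion protein E-cadherin, is the best known. ESRP1, an RNA-binding protein, sets the epithelial splicing pattern. CDH2 (N-cadherin), VIM (vimentin, an intermediate filament) and FN1 (fibronectin, a matrix protein) are the usual markers of the mesenchymal state. In lung cancer, lines range from epithelial to mesenchymal, and many hold features of both.

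The E-box is what the SNAI and ZEB proteins recognise, so the region before the start site was searched in the members themselves, for the E-box CAGGTG, read on the other strand as CACCTG, and for the GC box GGGCGG, read on the other strand as CCGCCC. RefSeq promoters on GRCh38.p14 were matched for 5 of the 10 genes, with 12 start sites in all: 7 of ZEB1, 2 of CDH2 and 1 each of FN1, VIM and ZEB2. Only the 250 bases before each start site were used. Of all 35116 promoters in the same table, 17.5% held the E-box and 42.6% a GC box. Of the 12 promoters of these genes, 2 held the E-box, both of them ZEB1 promoters, and 8 held a GC box. The first ZEB1 promoter (chr10:31318167-31318416, plus strand) is shown because it holds both elements, with the E-box starting 57 bases and the GC box 99 bases before the start site. The FN1 promoter (chr2:215436069-215436318, minus strand) is shown because FN1 differed most between the lines among the genes with a matched promoter, and it had no E-box and 6 GC boxes, some of which overlap. The VIM promoter (chr10:17227991-17228240, plus strand) is shown beside it because VIM differed between the lines in the other direction, and it had no E-box and 1 GC box that starts 46 bases before the start site. Capitals mark an E-box or a GC box. A match is a string of letters and not a shown binding site.
ZEB1: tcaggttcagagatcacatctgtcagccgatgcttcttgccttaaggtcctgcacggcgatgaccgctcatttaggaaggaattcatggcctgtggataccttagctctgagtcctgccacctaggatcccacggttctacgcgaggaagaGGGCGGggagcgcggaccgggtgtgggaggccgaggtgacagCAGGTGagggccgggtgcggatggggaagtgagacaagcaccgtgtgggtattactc
FN1: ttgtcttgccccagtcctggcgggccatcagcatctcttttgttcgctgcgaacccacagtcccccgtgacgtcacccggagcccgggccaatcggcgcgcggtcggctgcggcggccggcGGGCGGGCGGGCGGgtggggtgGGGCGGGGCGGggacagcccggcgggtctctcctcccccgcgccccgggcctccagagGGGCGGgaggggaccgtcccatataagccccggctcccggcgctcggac
VIM: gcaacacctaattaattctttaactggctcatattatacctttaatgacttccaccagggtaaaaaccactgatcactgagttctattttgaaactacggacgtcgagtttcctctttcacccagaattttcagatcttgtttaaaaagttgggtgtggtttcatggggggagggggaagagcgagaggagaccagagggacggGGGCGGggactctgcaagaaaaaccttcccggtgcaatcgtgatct

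PPP2R2A was counted first, as a check of the labels. In A549, PPP2R2A had 9.27, 11.2 and 7.36 CPM (read counts scaled by TMM to one library size) under shPPP2R2A-1 and 10.6, 13.1 and 15.4 CPM under shPPP2R2A-2, against 84.3, 48.7 and 86.2 CPM with shcon. In H1299, it had 7.32, 9.82 and 6.51 CPM under shPPP2R2A-1 and 18.1, 17.7 and 14.5 CPM under shPPP2R2A-2, against 104.0, 73.7 and 84.7 CPM with shcon. Every KD library lay below every shcon library of its line. The log2 fold changes of PPP2R2A were −2.98 (SE 0.27) and −2.47 (SE 0.26) in A549 and −3.52 (SE 0.22) and −2.45 (SE 0.21) in H1299, for shPPP2R2A-1 and shPPP2R2A-2 in that order. In H1299, PPP2R2A was also lower under shPPP2R2A-1 than under shPPP2R2A-2 (log2 fold change −1.08, SE 0.21, adjusted p = 0.0073), so the hairpins did not give equal KD there.

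Library totals ranged from 35743287 to 69298905 counts. CDKN2A, which A549 has lost, had 0 counts in 8 of the 9 A549 libraries and 57 counts (1.23 CPM) in A549 shPPP2R2A-2 replicate 1, while the 9 H1299 libraries had 28.7 to 64.5 CPM. The epithelial marker EPCAM had 1.7 to 10.4 CPM in A549 and 0.0409 to 0.364 CPM in H1299, and GRHL2, another epithelial marker, had 5 counts over all A549 libraries and 0 in H1299. H1299 shPPP2R2A-2 replicate 3, with the lowest total, made up 44.9% of the main axis of deviations from group means in its line, and A549 shcon replicate 2 made up 30.4% of that axis in A549. Results that rest on these libraries are also given without them.

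**Figure D1:**
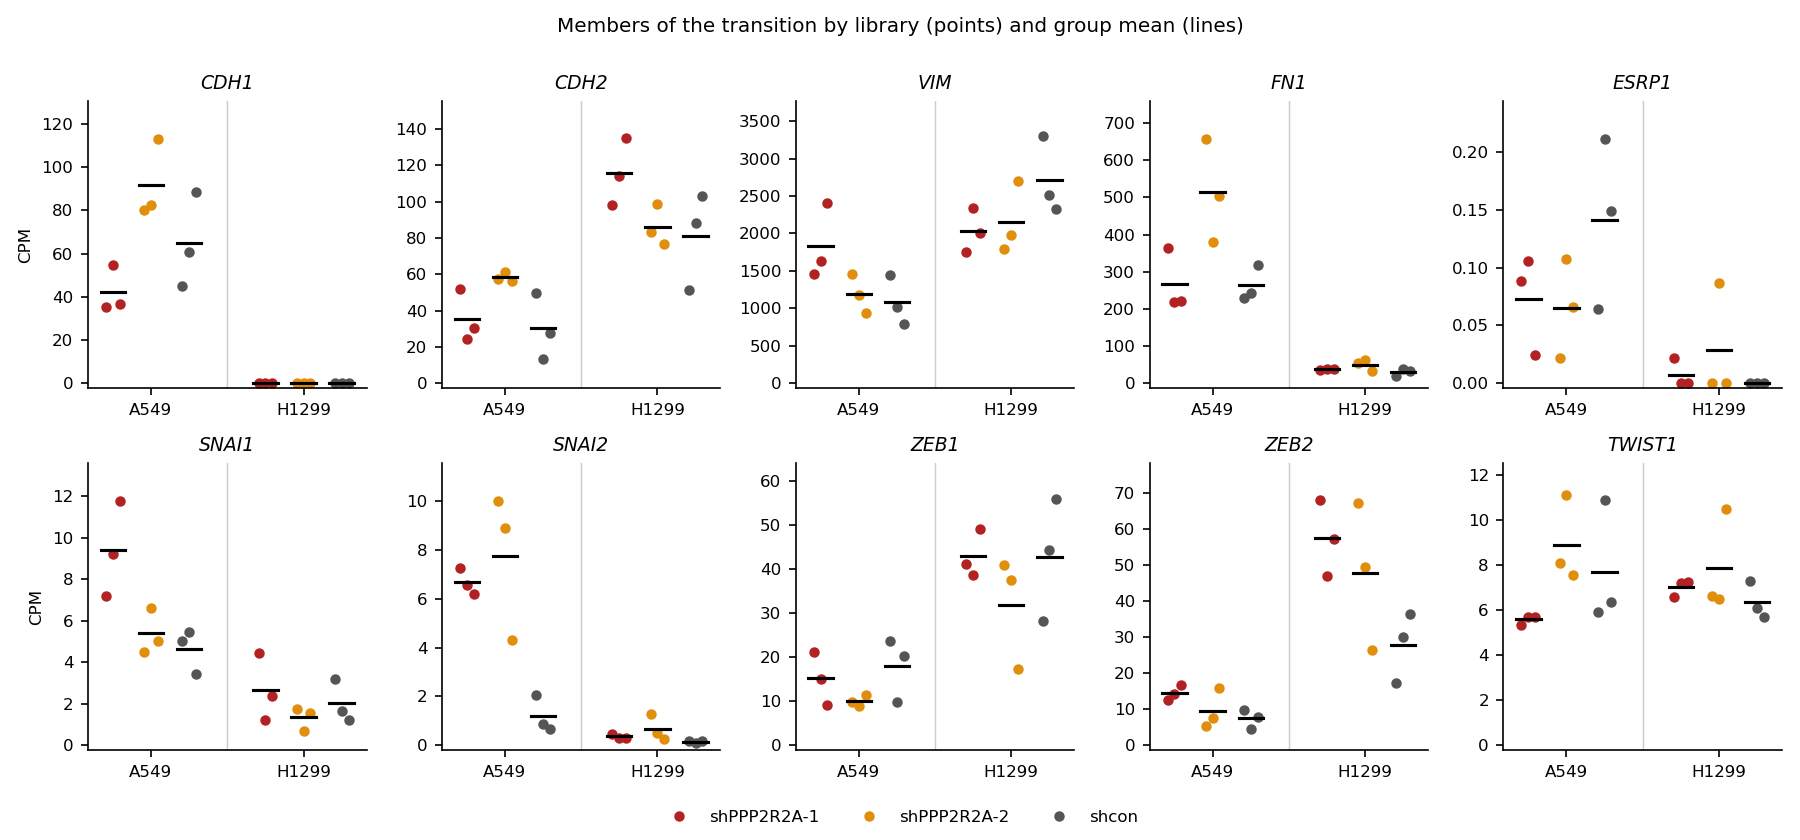
Level of each of the 10 EMT genes in every library (vertical axes, TMM-scaled CPM, each with its own range starting at 0), with A549 left and H1299 right in each panel. Points are single libraries (red, shPPP2R2A-1, orange, shPPP2R2A-2, grey, shcon) and black lines are means of 3 libraries. CDH1 lies at or near 0 in all H1299 libraries, and SNAI2 in A549 lies at 4.3 to 10.0 CPM in the KD libraries and at 0.68 to 2.04 CPM with shcon.

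The lines stood apart at baseline in CDH1 above all. With shcon, A549 had 45.1, 60.6 and 88.4 CPM of CDH1 (ENSG00000039068), against 0.0409, 0 and 0 CPM in H1299. These are 10594 counts over the 3 A549 libraries and 2 counts over the 3 H1299 libraries, a depth-scaled ratio of 5500 with a 95% interval of 1522 to 45400 that covers counting error only. CDH1 passed the filter on low counts only through A549, so its call in the test between the lines followed from the filter. In bulk libraries, fewer cells with a transcript and less of it per cell cannot be told apart. ESRP1 (ENSG00000104413) was scarce in both lines, with 3, 11 and 9 counts in A549 shcon and 0 in each H1299 shcon library, which is at least 7.96-fold higher in A549 when 3 counts are allowed over the H1299 group. ESRP1 passed no filter and was not tested. A549 therefore carried CDH1 mRNA with only a few counts of ESRP1 per library.

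The mesenchymal markers did not all go one way between the lines. CDH2 (ENSG00000170558) had 49.5, 13.3 and 27.7 CPM in A549 shcon, against 51.4, 88.1 and 103.0 CPM in H1299 shcon. The highest A549 library lay just under the lowest H1299 library, and CDH2 was lower in A549 with a log2 fold change of −1.42 (SE 0.36, adjusted p = 0.0025). VIM (ENSG00000026025) had 1439, 1013 and 787 CPM in A549, against 3298, 2518 and 2331 CPM in H1299, with no overlap. VIM was lower in A549 by 2.52-fold (log2 fold change −1.33, SE 0.25, adjusted p = 0.0002). FN1 (ENSG00000115414) went the other way, with 229.6, 242.0 and 319 CPM in A549 and 19.0, 37.1 and 33.5 CPM in H1299. FN1 was higher in A549 by 8.82-fold (log2 fold change 3.14, SE 0.30, adjusted p = 6.9e-08).

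The transcription factors also split, with the SNAI genes higher and the ZEB genes lower in A549. SNAI2 (ENSG00000019549) had 2.04, 0.863 and 0.68 CPM in A549 shcon, against 0.164, 0.0762 and 0.173 CPM in H1299 shcon. These were 95, 45 and 41 counts in A549 and 8, 4 and 11 counts in H1299. The log2 fold change of SNAI2 was 3.08 (SE 0.58, adjusted p = 0.00021). SNAI2 passed the filter on low counts through groups other than H1299 shcon, so this call followed in part from the filter. SNAI1 (ENSG00000124216) had 5.01, 5.45 and 3.46 CPM in A549, against 3.19, 1.64 and 1.22 CPM in H1299. SNAI1 was higher in A549 by 2.3-fold (log2 fold change 1.2, SE 0.44, adjusted p = 0.027). This call was lost when A549 shcon replicate 1 or 2 or H1299 shcon replicate 2 or 3 was left out, with adjusted p of 0.064, 0.077, 0.092 and 0.12 in that order, and over all 23 alternatives SNAI1 had adjusted p of 0.0014 to 0.12. ZEB1 (ENSG00000148516) had 23.7, 9.75 and 20.2 CPM in A549, against 28.2, 44.4 and 55.8 CPM in H1299, a log2 fold change of −1.26 (SE 0.36, adjusted p = 0.0061). ZEB2 (ENSG00000169554) had 9.84, 4.55 and 7.96 CPM in A549, against 17.2, 30.2 and 36.5 CPM in H1299, a log2 fold change of −1.91 (SE 0.40, adjusted p = 0.0005). Neither ZEB gene overlapped between the lines. TWIST1 (ENSG00000122691) had 5.91, 10.9 and 6.35 CPM in A549 and 7.28, 6.08 and 5.71 CPM in H1299, and the libraries of the lines were mixed (log2 fold change 0.28, SE 0.26, adjusted p = 0.37).

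Without CDH1, whose call followed from the filter, 3 of 8 tested genes were higher and 4 lower in A549 at baseline. The 3 include SNAI2, whose call followed in part from the filter. Of all 18827 genes tested between the lines, 30.6% were higher and 25.4% lower in A549, so a change was common among genes in general. The median log2 fold change was −0.49 over the 8 genes and 0.07 over all genes tested. Genes of both directions were present on the mesenchymal side of the list, where FN1, SNAI1 and SNAI2 stood against CDH2, VIM, ZEB1 and ZEB2.

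**Figure D2:**
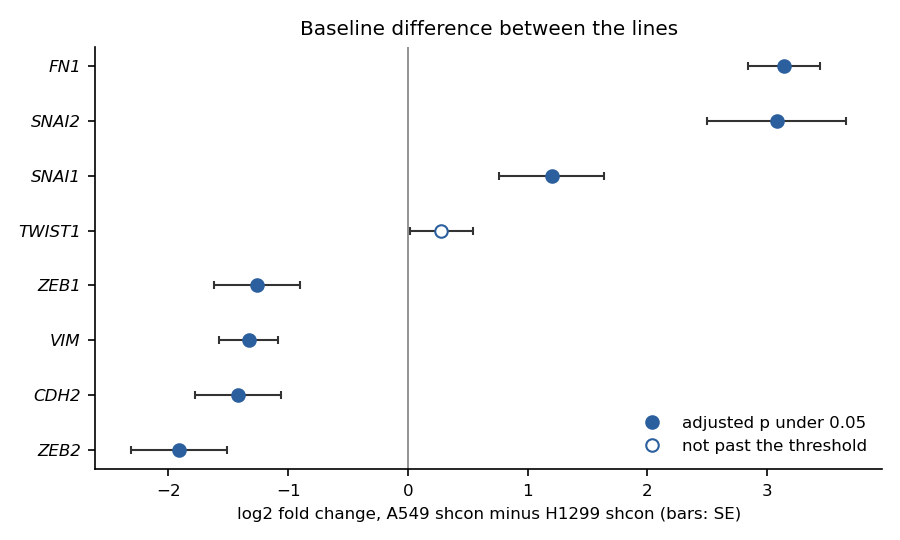
Log2 fold change between the lines at baseline (horizontal axis, A549 shcon minus H1299 shcon, edgeR) for the 8 tested genes other than CDH1, whose value would rest on 2 counts in H1299. Points are estimates, bars 1 SE to each side, and filled points have an adjusted p under 0.05. FN1, SNAI2 and SNAI1 lie right of 0 at 3.14, 3.08 and 1.2, and ZEB1, VIM, CDH2 and ZEB2 lie left of 0.

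PPP2R2A KD in A549 was followed by higher SNAI2 with both hairpins. SNAI2 had 7.28, 6.55 and 6.18 CPM under shPPP2R2A-1 and 10.0, 8.92 and 4.3 CPM under shPPP2R2A-2, against 2.04, 0.863 and 0.68 CPM with shcon. All 6 KD libraries lay above all 3 shcon libraries, the lowest of them at 4.3 CPM and the highest shcon library at 2.04 CPM. The counts behind these values were 329, 309 and 252 under shPPP2R2A-1 and 464, 417 and 196 under shPPP2R2A-2, against 95, 45 and 41 with shcon. SNAI2 rose by 5.59-fold under shPPP2R2A-1 (log2 fold change 2.48, SE 0.44, adjusted p = 0.0057) and by 6.58-fold under shPPP2R2A-2 (log2 fold change 2.72, SE 0.44, adjusted p = 0.0023). Both comparisons used the same shcon libraries. The 2 hairpins gave SNAI2 levels that overlapped (shPPP2R2A-1 minus shPPP2R2A-2, log2 fold change −0.24, SE 0.40, adjusted p = 0.73). The SNAI2 call held in each of 14 alternatives for either hairpin, over which the log2 fold change was 2.19 to 3.10 under shPPP2R2A-1 and 2.43 to 3.34 under shPPP2R2A-2.

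SNAI1, the paralog of SNAI2, rose with 1 of the hairpins. It had 7.19, 9.2 and 11.8 CPM under shPPP2R2A-1 and 4.5, 6.63 and 5.04 CPM under shPPP2R2A-2, against 5.01, 5.45 and 3.46 CPM with shcon. The shPPP2R2A-1 libraries lay above the other 6, while shPPP2R2A-2 and shcon overlapped. SNAI1 rose by 2.02-fold under shPPP2R2A-1 (log2 fold change 1.02, SE 0.28, adjusted p = 0.034), and its log2 fold change under shPPP2R2A-2 was 0.23 (SE 0.28, adjusted p = 0.60). The difference between the hairpins was 0.79 on the log2 scale (SE 0.28, adjusted p = 0.072), short of the threshold. The SNAI1 call under shPPP2R2A-1 was lost when shcon replicate 1 or 3, or shPPP2R2A-1 replicate 2 or 3, was left out (adjusted p = 0.063, 0.14, 0.071 and 0.11), and in the fit of all 18 libraries (adjusted p = 0.12), and it held in 8 of 14 alternatives, with adjusted p of 0.0049 to 0.14 over them.

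The ZEB genes and TWIST1 passed no test against shcon in A549. ZEB1 had 21.2, 15.1 and 9.18 CPM under shPPP2R2A-1 and 9.76, 8.98 and 11.5 CPM under shPPP2R2A-2, against 23.7, 9.75 and 20.2 CPM with shcon. Both KD groups overlapped shcon, in which replicate 2 was well under replicates 1 and 3 (log2 fold changes −0.25, SE 0.34, adjusted p = 0.67, and −0.81, SE 0.35, adjusted p = 0.12). Without shcon replicate 2, ZEB1 under shPPP2R2A-2 passed the threshold (log2 fold change −1.07, adjusted p = 0.02), and over 14 alternatives its adjusted p was 0.016 to 0.35. ZEB2 had 12.6, 14.2 and 16.7 CPM under shPPP2R2A-1 and 5.45, 7.63 and 15.9 CPM under shPPP2R2A-2, against 9.84, 4.55 and 7.96 CPM with shcon. The shPPP2R2A-1 libraries lay above shcon, though short of the threshold (log2 fold change 0.96, SE 0.38, adjusted p = 0.12), and shPPP2R2A-2 overlapped it (log2 fold change 0.38, SE 0.38, adjusted p = 0.50). TWIST1 had 5.36, 5.71 and 5.72 CPM under shPPP2R2A-1 and 8.1, 11.1 and 7.56 CPM under shPPP2R2A-2, against 5.91, 10.9 and 6.35 CPM with shcon (log2 fold changes −0.47, SE 0.28, adjusted p = 0.27, and 0.22, SE 0.27, adjusted p = 0.60). The shPPP2R2A-1 libraries of TWIST1 lay just below all shcon libraries, and those of shPPP2R2A-2 overlapped them.

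Among the mesenchymal markers in A549, FN1 rose under shPPP2R2A-2. It had 365, 219 and 221 CPM under shPPP2R2A-1 and 658, 380.3 and 504 CPM under shPPP2R2A-2, against 229.6, 242.0 and 319 CPM with shcon. The shPPP2R2A-2 libraries lay above all shcon libraries and the shPPP2R2A-1 libraries lay on both sides of them. FN1 rose by 1.97-fold under shPPP2R2A-2 (log2 fold change 0.98, SE 0.26, adjusted p = 0.021) and had a log2 fold change of 0.02 under shPPP2R2A-1 (SE 0.26, adjusted p = 0.96). Without shPPP2R2A-2 replicate 1, the library with CDKN2A counts, the FN1 call was lost (log2 fold change 0.78, adjusted p = 0.078), as it was without shcon replicate 1 (0.89, adjusted p = 0.075), and over 14 alternatives the adjusted p was 0.00014 to 0.078.

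VIM had 1455, 1626 and 2407 CPM under shPPP2R2A-1 and 1458, 1184 and 936 CPM under shPPP2R2A-2, against 1439, 1013 and 787 CPM with shcon. The shPPP2R2A-1 libraries lay above shcon, by little for replicate 1, and VIM did not pass the threshold with either hairpin (log2 fold changes 0.76, SE 0.28, adjusted p = 0.087, and 0.16, SE 0.27, adjusted p = 0.72). CDH2 had 51.7, 24.6 and 30.2 CPM under shPPP2R2A-1 and 57.4, 61.2 and 56.3 CPM under shPPP2R2A-2, against 49.5, 13.3 and 27.7 CPM with shcon. The shPPP2R2A-2 libraries were close to each other and above shcon, whose own spread was wide (log2 fold changes 0.23, SE 0.39, adjusted p = 0.73, and 0.96, SE 0.39, adjusted p = 0.11). Without shcon replicate 1, VIM passed under shPPP2R2A-1 (log2 fold change 1.02, adjusted p = 0.045, range over 14 alternatives 0.0073 to 0.29) and CDH2 under shPPP2R2A-2 (1.51, adjusted p = 0.022, range 0.00044 to 0.24).

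In A549, CDH1 differed between the hairpins, and neither hairpin passed the test against shcon. It had 35.4, 54.5 and 36.8 CPM under shPPP2R2A-1 and 80.2, 82.6 and 113.0 CPM under shPPP2R2A-2, against 45.1, 60.6 and 88.4 CPM with shcon. Each KD group overlapped shcon. Against shcon, the CDH1 log2 fold change was −0.62 for shPPP2R2A-1 (SE 0.26, adjusted p = 0.13) and 0.52 for shPPP2R2A-2 (SE 0.26, adjusted p = 0.18). Between the hairpins, CDH1 was 2.2-fold lower under shPPP2R2A-1 (log2 fold change −1.14, SE 0.26, adjusted p = 0.012), a call that held in all 14 alternatives. FN1 was also lower under shPPP2R2A-1 than under shPPP2R2A-2 (log2 fold change −0.96, SE 0.26, adjusted p = 0.025), although this call was lost without shPPP2R2A-1 replicate 2 (adjusted p = 0.11) or without shPPP2R2A-2 replicate 1 or 3 (adjusted p = 0.09 and 0.051), in a range of 0.00021 to 0.11 over 14 alternatives. PPP2R2A itself differed by −0.51 on the log2 scale between the hairpins in A549 (SE 0.25, adjusted p = 0.18). ESRP1 remained at 4, 5 and 1 counts under shPPP2R2A-1 and 1, 5 and 3 counts under shPPP2R2A-2, against 3, 11 and 9 counts with shcon, too few to test.

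In A549, 2 of the 9 tested genes (SNAI1 and SNAI2) rose under shPPP2R2A-1 and 2 (SNAI2 and FN1) under shPPP2R2A-2, and none of the 9 fell in the edgeR test. Among all 17229 genes tested, shPPP2R2A-1 had 7.34% that rose and 6.34% that fell, and shPPP2R2A-2 had 10.6% and 9.94%. At an unadjusted p under 0.05, 5 and 4 of the 9 genes passed, and DESeq2 called 2 with each hairpin. The shares of all genes at that unadjusted p or by DESeq2 are not set beside these counts, so nothing is read from them. The median log2 fold change of the 9 genes was 0.23 and 0.38, against −0.02 and −0.01 over all genes. Between the hairpins, 2 of the 9 (CDH1 and FN1) were called, against 17.5% of all genes tested.

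**Figure D3:**
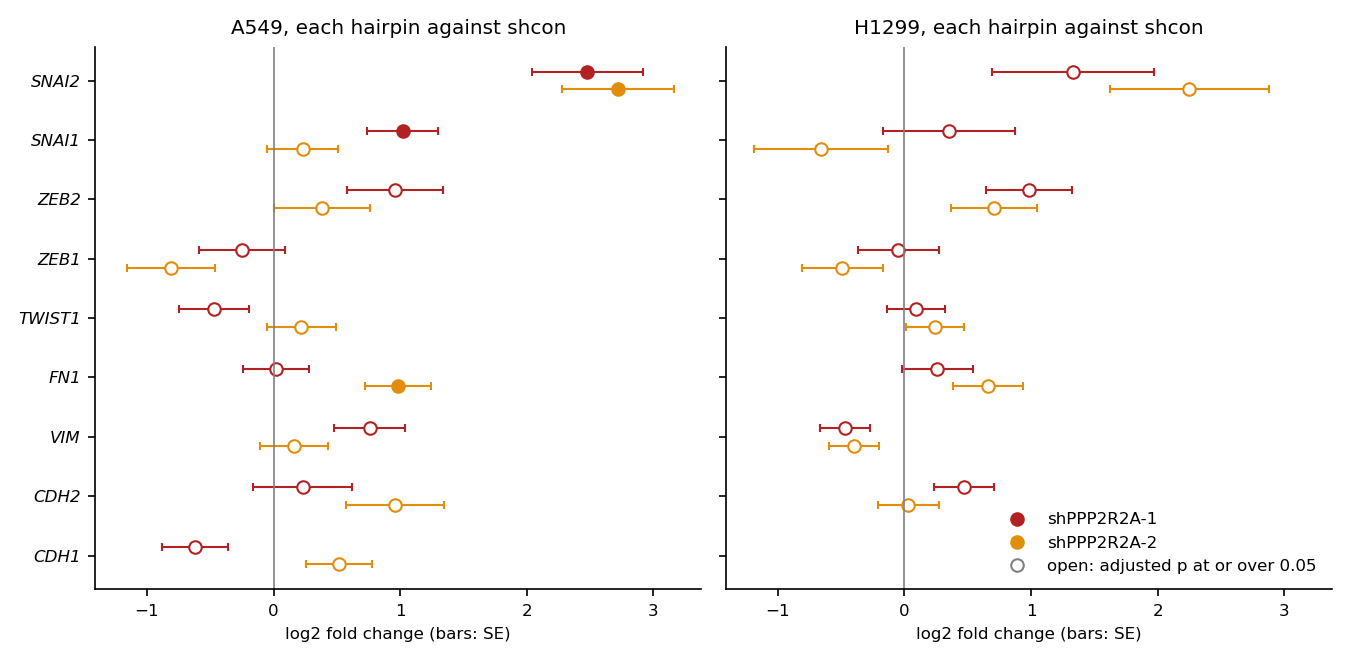
Log2 fold change of each tested EMT gene with each hairpin against shcon (horizontal axes, edgeR, bars 1 SE to each side), A549 left and H1299 right, shPPP2R2A-1 in red above shPPP2R2A-2 in orange. Filled points have an adjusted p under 0.05. SNAI2 lies at 2.48 and 2.72 in A549 and at 1.33 and 2.25 in H1299, filled in A549 only, and the A549 values of CDH1 lie on either side of 0 at −0.62 and 0.52.

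In H1299, no EMT gene passed the threshold with either hairpin, and the transcription factors SNAI2 and ZEB2 came nearest to it. SNAI2 had 0.478, 0.314 and 0.306 CPM under shPPP2R2A-1 and 1.28, 0.519 and 0.245 CPM under shPPP2R2A-2, against 0.164, 0.0762 and 0.173 CPM with shcon. All 6 KD libraries lay above the shcon libraries, on 22, 16 and 21 counts under shPPP2R2A-1 and 73, 30 and 9 counts under shPPP2R2A-2, against 8, 4 and 11 counts with shcon. The log2 fold changes of SNAI2 were 1.33 (SE 0.64, adjusted p = 0.27) and 2.25 (SE 0.63, adjusted p = 0.085). DESeq2 called SNAI2 under shPPP2R2A-2 (adjusted p = 0.017), as did the edgeR fit without shPPP2R2A-2 replicate 3 (log2 fold change 2.64, adjusted p = 0.022), and over 14 alternatives the adjusted p was 0.011 to 0.28. In H1299, SNAI2 passed the filter on low counts only through the KD libraries, where it was higher. No support for a rise is therefore drawn from these values.

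ZEB2 had 68.0, 47.0 and 57.3 CPM in H1299 under shPPP2R2A-1 and 67.3, 49.5 and 26.4 CPM under shPPP2R2A-2, against 17.2, 30.2 and 36.5 CPM with shcon. The shPPP2R2A-1 libraries lay above shcon, and of the shPPP2R2A-2 libraries only replicate 3 lay within its range. The log2 fold changes were 0.98 (SE 0.34, adjusted p = 0.15) and 0.71 (SE 0.34, adjusted p = 0.30). Without shPPP2R2A-2 replicate 3, ZEB2 passed with both hairpins, at 1.01 (adjusted p = 0.039, range over 14 alternatives 0.00055 to 0.43) and 1.02 (adjusted p = 0.047, range 0.042 to 0.65), and FN1 passed under shPPP2R2A-2 at 0.90 (adjusted p = 0.044, range 0.044 to 0.54). DESeq2 called ZEB2 under shPPP2R2A-1 (adjusted p = 0.042).

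The other factors overlapped shcon in H1299. ZEB1 had 41.2, 38.7 and 49.1 CPM under shPPP2R2A-1 and 40.8, 37.5 and 17.2 CPM under shPPP2R2A-2, against 28.2, 44.4 and 55.8 CPM with shcon. SNAI1 had 4.45, 1.22 and 2.36 CPM under shPPP2R2A-1 and 1.75, 0.693 and 1.58 CPM under shPPP2R2A-2, against 3.19, 1.64 and 1.22 CPM with shcon. TWIST1 had 6.61, 7.21 and 7.24 CPM under shPPP2R2A-1 and 6.62, 6.49 and 10.5 CPM under shPPP2R2A-2, against 7.28, 6.08 and 5.71 CPM with shcon. Replicate 3 of shPPP2R2A-2 was the lowest H1299 library for ZEB1 and the highest for TWIST1. Adjusted p for these 3 genes was 0.47 to 0.95.

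Of the markers in H1299, CDH1 had 0 counts in all 6 KD libraries, which allows up to 0.00946 CPM over them at 3 counts, against 2, 0 and 0 counts with shcon, and it was not tested. ESRP1 had 1, 0 and 0 counts under shPPP2R2A-1 and 0, 5 and 0 counts under shPPP2R2A-2, against 0 counts in each shcon library. VIM had 1757, 2344 and 2009.9 CPM under shPPP2R2A-1 and 1792, 1982 and 2705 CPM under shPPP2R2A-2, against 3298, 2518 and 2331 CPM with shcon. The shcon replicate 1 value was the highest of the 9, and the log2 fold changes of VIM were −0.47 (SE 0.20, adjusted p = 0.22) and −0.40 (SE 0.20, adjusted p = 0.32). FN1 had 35.5, 38.3 and 37.3 CPM under shPPP2R2A-1 and 53.7, 61.4 and 32.6 CPM under shPPP2R2A-2, against 19.0, 37.1 and 33.5 CPM with shcon. CDH2 had 98.3, 114.0 and 135.0 CPM under shPPP2R2A-1 and 83.1, 98.7 and 76.9 CPM under shPPP2R2A-2, against 51.4, 88.1 and 103.0 CPM with shcon. Both overlapped shcon with each hairpin.

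The edgeR count was thus 0 of 8 tested genes with each hairpin in H1299. With each hairpin, 2 genes had an unadjusted p under 0.05 and DESeq2 called 1. Shares of all genes at that unadjusted p or by DESeq2 are not set beside these counts, so nothing is read from them. Changes past the threshold were rare in this line: of 15972 genes tested, 0.808% rose and 1.93% fell under shPPP2R2A-1, and 1.37% rose and 1.72% fell under shPPP2R2A-2. Between the hairpins, 0 of the 8 genes were called by edgeR, against 16.2% of all genes. DESeq2 also called 0, and 0 had an unadjusted p under 0.05. The median log2 fold change of the 8 genes was 0.30 and 0.14 against shcon, where all genes had −0.04 and −0.01.

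Whether a response differed between the lines was tested directly, as the change in A549 minus the change in H1299. None of the 9 tested genes passed with edgeR for either hairpin, against 1.09% of all genes for shPPP2R2A-1 and 0.643% for shPPP2R2A-2. CDH1 is among the 9, but with 0 counts in the H1299 KD libraries its response there could not be measured. Nothing is therefore concluded for CDH1. At an unadjusted p under 0.05, 1 gene passed for shPPP2R2A-1 and 0 for shPPP2R2A-2, and DESeq2 called 1 and 0. The percentages over all genes given here are for edgeR at the adjusted threshold only. For SNAI2, called in A549 only, the difference between the lines was 1.11 (SE 0.80, adjusted p = 0.54) under shPPP2R2A-1 and 0.40 (SE 0.81, adjusted p = 0.89) under shPPP2R2A-2, so its response was not shown to differ. For SNAI1 under shPPP2R2A-1, the difference was 0.61 (SE 0.62, adjusted p = 0.68), and for FN1 under shPPP2R2A-2 it was 0.24 (SE 0.39, adjusted p = 0.84). VIM under shPPP2R2A-1 had the smallest p of the 9, at 1.18 (SE 0.35, adjusted p = 0.12), with a positive change in A549 and a negative one in H1299 that each missed the threshold, and over 22 alternatives its adjusted p was 0.0025 to 0.31. TWIST1 had differences of −0.61 (SE 0.37) and −0.10 (SE 0.37).

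Beyond these 10 genes, the A549 change after KD was most visible in mesenchymal structure and motility genes, which build contractile filaments and matrix. With shPPP2R2A-1, 15 of 31 tested rose and 1 fell, and under shPPP2R2A-2, 15 rose and 1 fell. Of all genes, 7.34% rose and 6.34% fell under shPPP2R2A-1, and 10.6% and 9.94% under shPPP2R2A-2. The median log2 fold change of the list was 1.45 and 1.06, against −0.02 and −0.01 over all genes. This list and those below were chosen with earlier results of these data known, so a larger share in them is not an independent result. The higher genes include CNN1, at 0.0477 ± 0.0517 CPM with shcon, which passed the filter on low counts only through the KD libraries. SPARC, a matrix-binding glycoprotein, had 57.0 ± 20.9 CPM under shPPP2R2A-1 and 19.0 ± 9.08 CPM under shPPP2R2A-2, against 3.99 ± 0.113 CPM with shcon (SD, n = 3), and rose by 3.83 (SE 0.36, adjusted p = 0.00045) and 2.26 (SE 0.34, adjusted p = 0.0017) on the log2 scale. ACTA2, the actin of smooth muscle and myofibroblasts, had 43.9 ± 6.8 and 116 ± 10.9 CPM, against 16.1 ± 3.08 CPM with shcon, and rose by 1.45 and 2.87. TPM1, a tropomyosin that stabilizes actin filaments, had 909.6 ± 130.4 and 796 ± 94.5 CPM, against 332 ± 144 CPM, and rose by 1.45 and 1.27. Each of these calls held in all 14 alternatives. The list's count of higher genes under shPPP2R2A-1 fell to 7 without shcon replicate 3 and was otherwise at least 13, and under shPPP2R2A-2 it was 13 to 18 with any library left out. The genes of the list that fell in the edgeR test were VCAN, a matrix proteoglycan, under shPPP2R2A-1 (log2 fold change −1.67, SE 0.22, adjusted p = 0.002), and MMP14, a membrane-bound matrix protease, under shPPP2R2A-2 (log2 fold change −1.90, SE 0.50, adjusted p = 0.022). The MMP14 call was lost when any shPPP2R2A-2 library was left out, and VCAN rose under shPPP2R2A-2.

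Since cultured lines should hold no other cell types, markers of such cells were counted beside these lists. The 6 fibroblast markers summed to 18.9 to 40.4 CPM under shPPP2R2A-1 and 30.1 to 36.0 CPM under shPPP2R2A-2 in A549, against 9.41 to 12.9 CPM with shcon. The higher sum in the KD libraries came mainly from COL1A1, at 20 and 28.4 CPM on average against 6.41 CPM with shcon, and the markers did not move together. COL1A1, a collagen that EMT also induces in epithelial cells, rose with both hairpins (log2 fold changes 1.64 and 2.16, adjusted p = 0.013 and 0.0026), LUM rose under shPPP2R2A-1 and had a log2 fold change of −0.44 under shPPP2R2A-2 (adjusted p = 0.33), COL3A1 had −0.42 and 0.18, and DCN had at most 3 counts over the shPPP2R2A-2 libraries. The part of such cells in the mesenchymal list was not tested. The 6 leukocyte markers summed to 3.86 to 5.57 and 5.15 to 5.37 CPM in the KD groups, against 6.01 to 15.6 CPM with shcon, and CD3E had at most 3 counts in each A549 group. Of 2 tested leukocyte markers, CD14 and LYZ fell under shPPP2R2A-1 and CD14 under shPPP2R2A-2, the CD14 calls holding in 9 and 7 of 14 alternatives. The 4 endothelial markers summed to 0.354 to 0.806 and 0.745 to 1.17 CPM with the hairpins, against 1.53 to 4.16 CPM with shcon, and the 1 that was tested, CDH5, fell under both, in 14 and 9 of 14 alternatives. In H1299, the fibroblast markers summed to 0.982 to 1.3 CPM under shPPP2R2A-1 and 3.77 to 7.29 CPM under shPPP2R2A-2, against 1.2 to 1.99 CPM with shcon, with LUM at 3 counts or fewer in each group.

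Epithelial junction and polarity genes, like CDH1, parted between the hairpins in A549. With shPPP2R2A-1, 10 of 30 tested fell and 2 rose (median log2 fold change −0.68), and under shPPP2R2A-2, 2 fell and 7 rose (median 0.08). The 10 include MARVELD3 (0.0515 ± 0.0234 CPM under shPPP2R2A-1), and the 7 include PRSS8 (0.0127 ± 0.0113 CPM with shcon). Each passed the filter only through other groups, so its call followed in part from the filter. Of all genes, 6.34% fell and 7.34% rose under shPPP2R2A-1, and 9.94% and 10.6% under shPPP2R2A-2. The 2 that rose and the 2 that fell were no more than these shares, and 17.5% of all genes were called between the hairpins. Between the hairpins, 11 were lower and 2 higher under shPPP2R2A-1, and the 11 became 7 without shPPP2R2A-1 replicate 2 or shPPP2R2A-2 replicate 3. The fall under shPPP2R2A-1 narrowed to 3 genes without shcon replicate 3, to 5 without shPPP2R2A-1 replicate 2 and to 6 without shPPP2R2A-1 replicate 3, and the 7 that rose under shPPP2R2A-2 became 4 without shcon replicate 1 or 3 or shPPP2R2A-2 replicate 2 or 3. The 2 that rose under shPPP2R2A-1 became 1 without shcon replicate 1 or 3 or shPPP2R2A-1 replicate 2 or 3. The 3 genes of the list that the hairpins moved past the threshold in opposite directions are named after their values were seen. CLDN1, a tight junction claudin, rose by 1.25 (adjusted p = 0.013) under shPPP2R2A-1 and fell by 1.38 (adjusted p = 0.0059) under shPPP2R2A-2. PKP3, a desmosome plakophilin, had log2 fold changes of −0.83 (adjusted p = 0.016) and 0.84 (adjusted p = 0.011), and CDS1, an enzyme of phospholipid synthesis kept in the list as an epithelial marker, −0.86 (adjusted p = 0.027) and 1.55 (adjusted p = 0.0013). Epithelial transcription and splicing regulators gave 0 higher and 3 lower of 9 under shPPP2R2A-1 (ELF3, EHF and TP63) and 1 higher (GRHL3) and 0 lower under shPPP2R2A-2. The 3 that fell became 0 when replicate 3 of shcon or of shPPP2R2A-1 was left out and 1 when replicate 2 of any A549 group was, and the GRHL3 call was lost without shPPP2R2A-2 replicate 2 or 3.

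The counts of the smaller lists in A549 stand beside shares over all genes of 7.34% higher and 6.34% lower under shPPP2R2A-1. Under shPPP2R2A-2 these shares were 10.6% and 9.94%. Other transcription factors linked to EMT gave 3 higher (RUNX2, TBX3 and FOSL1) and 2 lower (TCF3 and SOX9) of 12 under shPPP2R2A-1 in A549, and 1 higher (SOX4) and 0 lower under shPPP2R2A-2. Without shcon replicate 3 the 3 became 1, and the count under shPPP2R2A-2 was 2 to 4 without any 1 of 7 libraries. Of the corepressors through which SNAI and ZEB proteins act, 0 of 10 rose, and 2 fell under shPPP2R2A-1 and 4 under shPPP2R2A-2, where 6.34% and 9.94% of all genes fell. EZH2, the histone methyltransferase of Polycomb complex PRC2, had 37.4 ± 7.6 and 25.1 ± 3.09 CPM, against 59.3 ± 4.71 CPM with shcon, and fell by 0.67 (SE 0.18, adjusted p = 0.034) and 1.23 (SE 0.19, adjusted p = 0.0017) on the log2 scale. HDAC1, a histone deacetylase, had 81.5 ± 10.4 and 67.4 ± 1.64 CPM, against 116 ± 4.5 CPM, and fell by 0.51 (SE 0.15, adjusted p = 0.039) and 0.77 (SE 0.15, adjusted p = 0.005). The shPPP2R2A-1 call of HDAC1 was lost when any 1 of the 9 A549 libraries was left out (adjusted p of 0.054 to 0.13), and that of EZH2 held in 7 of 14 alternatives, with adjusted p of 0.0099 to 0.096. Among 10 genes of SNAI1 protein turnover, LATS2, a Hippo pathway kinase, rose under shPPP2R2A-1, and CSNK1A1 and PAK1, kinases that phosphorylate SNAI1, fell under shPPP2R2A-2. Of 5 tested catenins, which tie cadherins to actin, CTNNA2 and JUP rose under shPPP2R2A-2 and none was called under shPPP2R2A-1. CTNNA2 had 0.082 ± 0.0287 CPM with shcon and passed the filter only through the KD libraries, so its call followed in part from the filter. Of 5 splicing regulators linked to EMT, among them the epithelial RBM47, PTBP1 fell under shPPP2R2A-2 and no other was called. The CTNNA2 and JUP calls were both lost without shcon replicate 1 or 3 or shPPP2R2A-2 replicate 2, those of CSNK1A1 and PAK1 both without shPPP2R2A-2 replicate 2, and that of PTBP1 without any 1 of 6 libraries. The 5 miR-200 family genes MIR200A, MIR200B, MIR200C, MIR141 and MIR429, whose microRNAs target ZEB1 and ZEB2 mRNA, had 1 count in total over the 18 libraries and could not be tested in these mRNA libraries.

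In H1299, few genes of these lists changed against shcon. Of all genes there, 0.808% rose and 1.93% fell under shPPP2R2A-1, and 1.37% and 1.72% under shPPP2R2A-2. The mesenchymal structure list gave 1 of 25 higher under shPPP2R2A-1 (TGFBI, a matrix protein induced by TGF-beta) and 2 under shPPP2R2A-2 (SPARC and MMP14), with 0 lower, and without shPPP2R2A-2 replicate 3 these counts were 3 and 6. Each also became 0 without shcon replicate 3, so counts this small rested on single libraries. For shPPP2R2A-1, the count was 3 with the replicate number as a block. The epithelial junction list gave 0 higher and 1 lower of 21 under shPPP2R2A-1 (TJP3), with 3 lower with the replicate block, and 1 higher (CDS1) and 1 lower (CLDN1) under shPPP2R2A-2. TJP3 had 0.0553 ± 0.0202 CPM under shPPP2R2A-1 and passed the filter only through other groups, so its call followed in part from the filter. TCF3 and HMGA2 were lower under shPPP2R2A-1 among 12 other transcription factors and none was called under shPPP2R2A-2. With shPPP2R2A-2, the catenin JUP was higher, HDAC1 was lower, the fibroblast marker COL1A1 was higher (log2 fold change 1.71, adjusted p = 0.042), and no gene of the other lists was called. More list genes were called between the hairpins in H1299, where 16.2% of all genes were. Of 21 epithelial junction genes, 7 were lower and 2 higher under shPPP2R2A-1 than under shPPP2R2A-2 (median log2 fold change −0.66). With any library left out, the 7 became 3 to 8. Of 25 mesenchymal structure genes, 5 were lower and 2 higher, and of 12 other transcription factors 3 were lower and 0 higher.

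**Figure D4:**
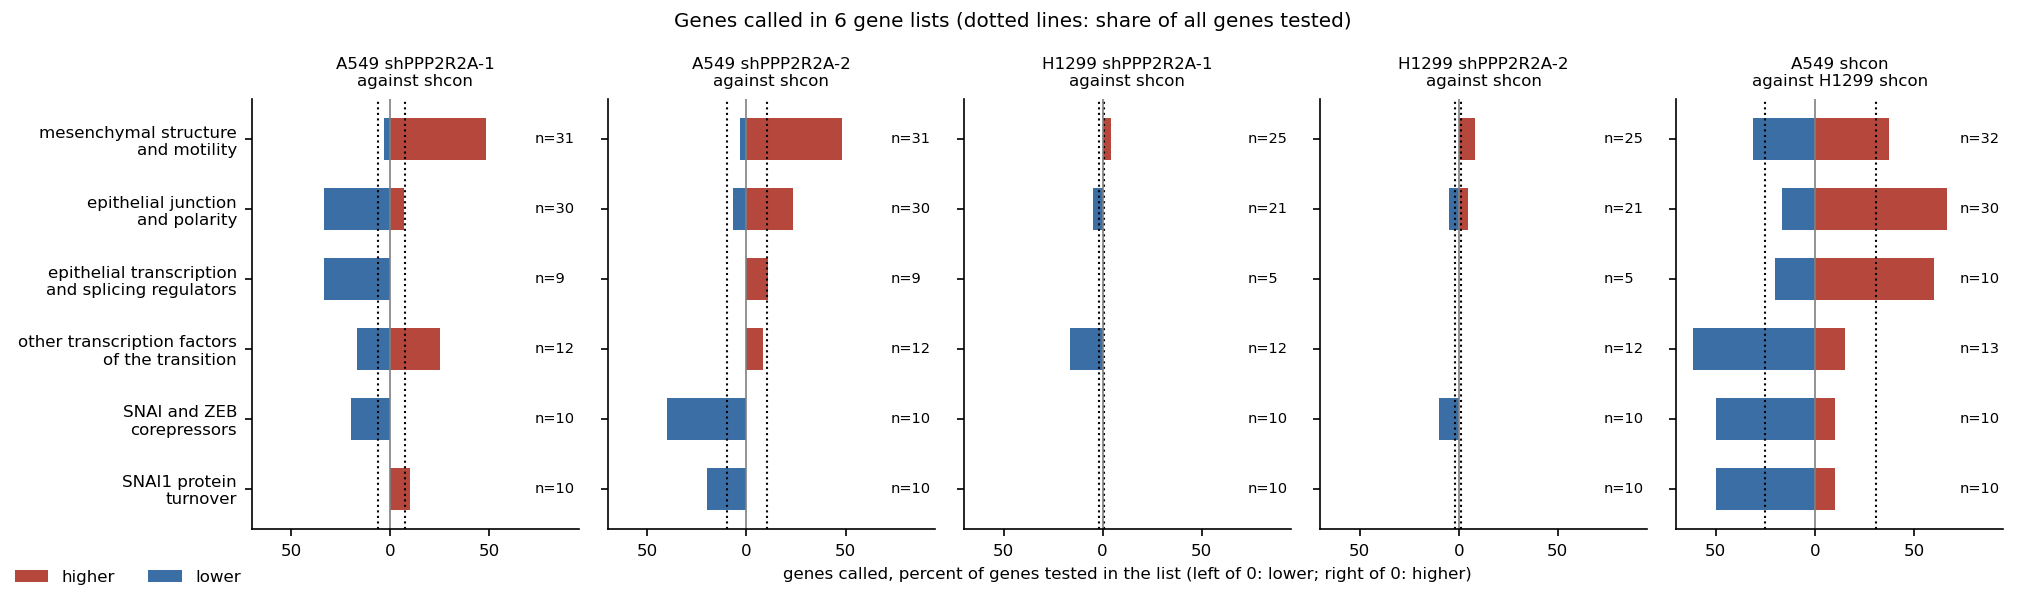
Percent of the tested genes in each of 6 wider lists that were called lower (left of 0, blue) or higher (right of 0, red) by edgeR, for each hairpin against shcon in A549 and H1299 and for A549 against H1299 at baseline. Dotted lines give the same percentages over all genes tested, and n is the number of genes of the list that were tested. In A549, the mesenchymal structure list has 15 of 31 genes higher with each hairpin, while the epithelial junction list has 10 of 30 lower under shPPP2R2A-1 and 7 of 30 higher under shPPP2R2A-2.

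At baseline, many epithelial junction and polarity genes were higher in A549. Of 30 tested, 20 were higher and 5 lower in A549 than in H1299 (median log2 fold change 2.16), where 30.6% of all genes were higher and 25.4% lower, and the 5 became 3 without A549 shcon replicate 2. Of the 30, 9 passed the filter in A549 but not within H1299, so a call of theirs followed from the filter as that of CDH1 did, and of the 21 that passed in both lines 12 were higher and 5 lower (median 1.68). SPINT2, a protease inhibitor of epithelia, had 360.2 ± 73.9 CPM in A549 and 4.77 ± 0.352 CPM in H1299, and LLGL2, a polarity protein, 65.7 ± 19.2 and 2.19 ± 0.692 CPM. EVPL, a cornified envelope and desmosome protein, had 35.3 ± 7.3 CPM in A549 and 0 in each H1299 library. The genes lower in A549 included CLDN1 and CGN, both of tight junctions, with CLDN1 at 61.1 ± 15.8 CPM in A549 and 194 ± 38 CPM in H1299. Of 10 epithelial transcription and splicing regulators, 6 were higher and 2 (GRHL1 and ESRP2) lower in A549, but of the 4 that passed the filter in both lines 1 was higher and 1 lower. ELF3, an epithelial ETS factor, had 277 ± 98.5 CPM in A549 and 0 in H1299 shcon. ESRP2, the paralog of ESRP1, was low in both lines, at 0.0702 ± 0.0887 CPM in A549 and 0.394 ± 0.139 CPM in H1299 (log2 fold change −2.45, SE 1.01, adjusted p = 0.047). It passed the filter in H1299 but not within A549, so its call followed in part from the filter. That call held in 12 of 23 alternatives (adjusted p = 0.0055 to 0.15).

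Mesenchymal structure genes were called in both directions at baseline. Of 32 tested, 12 were higher and 10 lower in A549, with a median log2 fold change of −0.01, near the shares of 30.6% and 25.4% over all genes, and of the 25 that passed the filter in both lines 6 were higher and 10 lower. S100A4, a calcium-binding protein of motile cells, had 707 ± 109 CPM in A549 and 1.62 ± 0.357 CPM in H1299, and TGFBI had 664 ± 316 and 10.0 ± 4.69 CPM. WNT5B, a Wnt ligand, had 0.176 ± 0.129 CPM in A549 and 51.1 ± 16.3 CPM in H1299, and NT5E, the ecto-nucleotidase CD73, had 52.6 ± 13.3 and 392 ± 110.4 CPM. Of 13 other transcription factors, 2 (TBX3 and SOX4) were higher and 8 lower in A549, and 1 and 7 of the 11 that passed the filter in both lines. HMGA2, a chromatin protein that induces EMT factors, had 95.5 ± 28.6 CPM in A549 and 680 ± 31.6 CPM in H1299, and PRRX1, a homeodomain factor of mesenchyme, 0.0128 ± 0.0222 and 13.7 ± 1.25 CPM. Of the catenins, JUP (plakoglobin) had 412 ± 118 CPM in A549 and 2.45 ± 0.0508 CPM in H1299. RBM47, an RNA-binding protein of epithelia, had 84.2 ± 20.5 CPM in A549 and 0.0157 ± 0.0272 CPM in H1299, while RBFOX2, PTBP1 and QKI were lower in A549. Of the corepressors and of the SNAI1 turnover genes, 1 of 10 was higher and 5 lower in A549 in each list, against 30.6% and 25.4% of all genes. Some of these small counts rested on single shcon libraries: the 1 higher corepressor, CTBP2, was lost without A549 replicate 1 or 3 or H1299 replicate 2 or 3, and the 5 lower turnover genes became 3 without H1299 replicate 2.

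The genes whose pattern was most like each of the 10 were looked up as a description, by Pearson's r of log2 CPM over the 18 libraries after removal of each line's mean, or over the 9 A549 libraries for CDH1 and SNAI2. Libraries of a line share their depth and handling, and r over so few libraries is high for some of 10895 or 12403 candidates in any case, so no test is attached. SNAI2 was nearest to THBD and TMEM158 (r = 0.98 each). CDH1 was nearest to CPNE4 (r = 0.97). ZEB1 was nearest to ERCC4 and FAM199X (r = 0.97 each), and ZEB2 to HIF1AN (r = 0.94). FN1 was nearest to CYP2U1 (r = 0.92), SNAI1 to PROSER2 (r = 0.92), CDH2 to TRAM1 (r = 0.91), VIM to HYI (r = 0.89) and TWIST1 to PSMC4 (r = 0.87). None of the genes named here was another of the 10. ESRP1 had too few counts for this.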

How the data were processed

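RNA-Seq of polyadenylated, stranded libraries was done on 18 samples, 3 for each of 6 groups. The authors deposited raw gene counts for 57773 genes (55773 distinct symbols) on GRCh37/hg19. The submitters' processing notes list STAR 2.7.3a, Bowtie2, HTSeq 0.11.2, Cufflinks 2.2.1, DESeq2, cutadapt 2.5 and FastQC 0.11.8. The authors also deposited normalized signal values, which are these counts divided by 1 factor per library and were not used. The role and settings of each tool are not given in the sources used here. Library totals were 35743287 to 69298905 counts, and low counts limit precision for SNAI2 in H1299 and for ESRP1. There were 0 further columns of sample values.

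Counts were tested with the quasi-likelihood test of edgeR 4.0.16 (R 4.3.3) with TMM factors, its default filter on low counts by group, robust dispersion and Benjamini-Hochberg adjustment over all genes tested, with a threshold of 0.05. Hairpins were compared in a fit of the 9 libraries of a line, and the lines and their responses in a fit of all 18. The SE of a log2 fold change is its size divided by the square root of F. Printed CPM use TMM factors over all 18 libraries. The floor of a count of 0 is 3 counts, and intervals (95%) and floors cover counting error only. Likeness used log2 CPM with a prior count of 2 and genes that averaged 100 or more counts. The code was tested on simulated counts: at a log2 fold change of 2, 97% of changed genes were recovered for shPPP2R2A-1 in A549 and in H1299. At a log2 fold change of 1, 33.3% were recovered in A549 and 50% in H1299. For the shPPP2R2A-1 response between the lines, 10.6% were recovered at 1 and 82.1% at 2. A gene short of the threshold may therefore still have changed by that much. Python 3.11.15, pandas 2.3.3 and matplotlib 3.10.9 were used for tables and plots.

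Alternatives were DESeq2 1.42.0, median-of-ratios factors, no filter, a replicate block, all 18 libraries in 1 fit, the 6 shcon libraries alone and each library left out. Their use for the counts of called genes in the wider lists was chosen after seeing the data. The 10 genes and the 13 wider lists were chosen with earlier results of these data known. The lists were epithelial junction and polarity, epithelial transcription and splicing regulators, other transcription factors of the transition, mesenchymal structure and motility, catenins, SNAI and ZEB corepressors, SNAI1 protein turnover, splicing regulators linked to EMT, miR-200 genes, markers of leukocytes, fibroblasts and endothelium, and genes whose loss marks a line. All 10 genes and PPP2R2A were named, and from each list up to 3 genes per direction with the smallest adjusted p at baseline, or called the same way by both hairpins of a line. Other list genes were named after their values were seen. Some genes that this rule takes are not reported here. Same-numbered libraries were checked for deviations that go together. In H1299 all correlations were over 0.1 between shPPP2R2A-1 and shcon (0.15 to 0.24) and between the hairpins (0.2 to 0.39). No label states a pairing. In H1299 shPPP2R2A-2 against shcon (−0.43 to 0.4) and in A549 (−0.34 to 0.32) the correlations had both signs. Shared numbers would pair all groups of a line, so the numbers were not taken to pair libraries. With 3 libraries in a group, these correlations cannot settle whether libraries were paired. The main fits held no replicate block in either line, so their p-values take no account of any pairing. Fits with the block are among the alternatives. Replicates of a group agreed at r = 0.975 to 0.992 (log2 CPM) and differed by more than sampling noise.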

Additional observations from a re-analysis of the deposited data

Results flagged for a closer look

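None of the 8 EMT genes that passed the filter in both lines differed in its response between the lines by the edgeR interaction test. Of them, 1 had an unadjusted p under 0.05 for shPPP2R2A-1 and 0 for shPPP2R2A-2, and DESeq2 called 1 and 0. No share of all genes is set beside these last counts. By the edgeR test, 9 genes of the wider lists did differ. They were 6 of 129 tested list genes for shPPP2R2A-1 (4.65%) and 4 of 129 for shPPP2R2A-2 (3.1%), against 1.09% and 0.643% of all genes. Some of the 129, such as EVPL, had no counts in H1299, so their response there could not be measured. The lists were chosen with earlier results of these data known, so their larger share is not an independent result. Differences of log2 fold changes are given as A549 minus H1299 (edgeR, adjusted over all genes). For shPPP2R2A-1, SPARC differed by 2.91 (SE 0.44, adjusted p = 0.0053), HMGA2 by 2.35 (SE 0.38, adjusted p = 0.0075), ACTA2 by 1.84 (SE 0.35, adjusted p = 0.018) and FSTL1 by 1.45 (SE 0.34, adjusted p = 0.047). For the same hairpin, VCAN differed by −1.92 (SE 0.39, adjusted p = 0.023) and CDS1 by −1.91 (SE 0.36, adjusted p = 0.017). For shPPP2R2A-2, ACTA2 differed by 1.79 (SE 0.34, adjusted p = 0.021), EZH2 by −1.11 (SE 0.23, adjusted p = 0.028), ERBB3 by −2.54 (SE 0.50, adjusted p = 0.025) and MMP14 by −3.02 (SE 0.52, adjusted p = 0.019). SPARC had log2 fold changes of 3.83 in A549 and 0.87 in H1299 under shPPP2R2A-1, and ACTA2 had 1.45 and −0.44. HMGA2 under shPPP2R2A-1 had a log2 fold change of 0.40 in A549 and of −1.99 in H1299. MMP14 was called in both lines under shPPP2R2A-2, at −1.90 in A549 and 1.05 in H1299. The calls of SPARC and HMGA2 held without any 1 of the 18 libraries and that of MMP14 in 17 of 18, lost without A549 shPPP2R2A-2 replicate 2. The CDS1 call was lost without replicate 3 of A549 shcon, A549 shPPP2R2A-1 or H1299 shPPP2R2A-1. The other calls were lost more often. VCAN held in 12 of 18, ACTA2 in 13 for shPPP2R2A-1 and 11 for shPPP2R2A-2, ERBB3 in 12, EZH2 in 8 and FSTL1 in 5.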

How the results depend on the processing

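Over the 10 genes and PPP2R2A, median-of-ratios factors changed none of 76 results, DESeq2 moved 4 past the threshold, the fit without the filter 11 of 76, and leaving out 1 library left the sign and side of the threshold as they were in 856 results, moved 9 past it and 13 short of it, and turned the sign of 31. Members called, 2 of 9 under each hairpin in A549 and between the hairpins, were 5, 4 and 4 without the filter. In H1299 they were 0, with 1 by DESeq2 and 1 without the filter under shPPP2R2A-1, and 1 by DESeq2, 2 without the filter and 1 in the fit of all 18 libraries under shPPP2R2A-2. For the response to shPPP2R2A-1 between lines, DESeq2 and the fit without the filter called 1 each.

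Over all genes, A549 shPPP2R2A-1 had 1092 lower, with 1697 by DESeq2 and 1820 without the filter. H1299 shPPP2R2A-1 had 129 higher and 308 lower, with 560 and 812 by DESeq2, 554 and 827 without the filter and 226 higher in the fit of all 18. H1299 shPPP2R2A-2 had 219 higher and 274 lower, with 697 and 552 by DESeq2, 652 and 517 without the filter and 414 higher in the fit of all 18. The response to shPPP2R2A-1 differed in 152 genes upward and 54 downward, with 511 and 214 by DESeq2 and 530 and 374 without the filter. The response to shPPP2R2A-2 differed in 56 and 65, with 325 and 333 by DESeq2 and 338 and 473 without the filter. The cause was not tested.

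The replicate block left 0 members called in H1299 and moved the counts over all genes there little (132 higher and 295 lower for shPPP2R2A-1). The numbers were not taken to pair libraries in either line. With the replicate block in A549, shPPP2R2A-1 had 721 genes lower and 1 member called (SNAI1 was lost, adjusted p = 0.061, range over its alternatives 0.0049 to 0.14), the downward response differences were 32 and 38, FN1 under shPPP2R2A-1 was at −0.02, and CDH2 under shPPP2R2A-2 passed in A549.

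With each library left out in turn, genes higher and lower were 495 to 1422 and 423 to 1309 for A549 shPPP2R2A-1 (members 1 to 2), 904 to 2397 and 623 to 2190 for A549 shPPP2R2A-2 (1 to 3), 531 to 1746 and 918 to 2090 between the A549 hairpins (1 to 3), 11 to 508 and 52 to 587 for H1299 shPPP2R2A-1 (0 to 1), 17 to 730 and 70 to 487 for H1299 shPPP2R2A-2 (0 to 3), 414 to 1370 and 571 to 1683 between the H1299 hairpins, 5222 to 6043 and 4239 to 5111 at baseline (7 to 8), 25 to 197 and 6 to 81 for the shPPP2R2A-1 response (0 to 1) and 4 to 105 and 3 to 281 for the shPPP2R2A-2 response. Fewer samples enter these fits. Of members that were not called, these changed sign. In A549, CDH2 (−0.14 to 0.78), FN1 (−0.26 to 0.18) and ZEB1 (−0.57 to 0.01) did so under shPPP2R2A-1, and VIM (−0.03 to 0.42) and ZEB2 (−0.13 to 0.69) under shPPP2R2A-2. In H1299, SNAI1 (−0.21 to 0.86) and ZEB1 (−0.25 to 0.2, and 0.01 with all 18 libraries) did so under shPPP2R2A-1, CDH2 (−0.2 to 0.24) under shPPP2R2A-2, and TWIST1 (−0.27 to 0.12), VIM (−0.19 to 0.13) and ZEB2 (−0.01 to 0.61) between the hairpins. TWIST1 at baseline was −0.05 to 0.41. In responses, CDH2 (−0.66 to 0.31), ZEB1 (−0.57 to 0.05) and ZEB2 (−0.34 to 0.22) did so for shPPP2R2A-1, and TWIST1 (−0.29 to 0.24), ZEB2 (−0.79 to 0.03) and PPP2R2A (−0.32 to 0.16) for shPPP2R2A-2.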
